A study of Mus musculus with 24 samples.

Results

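*Pou5f1* (the gene of Oct4), *Sox2*, *Nanog* and *Sall4* were followed by RNA-seq through the differentiation of male mouse embryonic stem cells (mESCs) in which the chromatin remodelling genes *Smarcc1* or *Smarca4* had been knocked down. The 4 genes were taken by name from a table of 25965 gene entries, and all 4 belonged to the 13296 entries on which tests were run, those whose log2 values averaged 0 or more. The values are in log2 rpm, where rpm is the reads of a gene per 1000000 reads of its library, so that 0 equals 1 rpm.

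The cells were male C57/Bl6 mESCs, grown in 2i with LIF and then moved by steps to serum medium lacking LIF, in which they differentiate with no lineage chosen for them. All groups, the controls included, received a short hairpin RNA (shRNA) retrovirus on day 2 and puromycin from day 3, and RNA was taken on days 4, 5, 6 and 7. *Smarcc1* was targeted by hairpins Smarcc1.6 and Smarcc1.7, and *Smarca4* by hairpins Smarca4.4 and Smarca4.6, which gave 8 libraries per knockdown with 1 library per hairpin and day. The control was a nonsilencing hairpin (Nons) with 4 libraries, 1 a day, all of 1 culture series, so the spread between Nons cultures was not measured and every comparison with Nons rests on that series. The 4 libraries of a further Nons series were not analysed here. Nothing states that same-day libraries came from separately derived lines, so *p*-values measure the spread between hairpins of 1 gene.

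Oct4 and Sox2 bind DNA side by side at many enhancers of stem cells, among them those of their own genes and of *Nanog*. Nanog is a homeodomain protein that sustains self-renewal and is known to be heterogeneous between stem cells, while Sall4 is a zinc finger protein that sustains *Pou5f1* expression and binds the NuRD complex. Transcripts of all 4 are lost as mESCs differentiate, some later than others. *Smarca4* (Brg1) is the ATPase and *Smarcc1* (Baf155) a core subunit of the BAF remodelling complex, which in mESCs shares many binding sites with Oct4, Sox2 and Nanog.

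The guide strands of the 5 hairpins are shown because every comparison turns on them and because their seeds can pair with other transcripts. They are written 5′ to 3′ with the seed, bases 2 to 8, in capitals.
Nons: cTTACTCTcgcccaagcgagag
Smarcc1.6: tGTAACTGcttcttcatcctgc
Smarcc1.7: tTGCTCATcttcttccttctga
Smarca4.4: tTTATTACtgtctgactccagt
Smarca4.6: tTGCATAAtagtgttcatcagt
In the GENCODE M21 transcripts of GRCm38 the whole Nons guide matched no transcript, and each other guide matched its own target gene and no other. Smarcc1.6 pairs with chr9:110177472-110177493 in coding exon 13 of the 28 exons of *Smarcc1*, and Smarcc1.7 with chr9:110173911-110173932 in coding exon 11. Smarca4.4 pairs with chr9:21703327-21703348 in exon 34 of the 34 exons of *Smarca4*, in the 3′ UTR, and Smarca4.6 with chr9:21670504-21670525 in coding exon 22.

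Library totals ranged from 6829596 reads (Smarca4.4 on day 5) to 27472885 reads. *Smarcc1* stood at 23.7% to 60.1% of same-day Nons in its 8 knockdown libraries, and *Smarca4* at 21.6% to 55.3% in its 8. Of the 7 embryonic stem cell markers looked at, which include *Pou5f1*, *Sox2* and *Nanog*, each had reads in every library, and their summed level went from 2650 rpm on day 4 to 560 rpm on day 7 in Nons. In bulk libraries such as these, fewer cells that express a gene and less RNA per cell cannot be told apart. Each value of *Pou5f1*, *Sox2*, *Nanog* and *Sall4* rested on at least 747 reads.

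**Figure D1:**
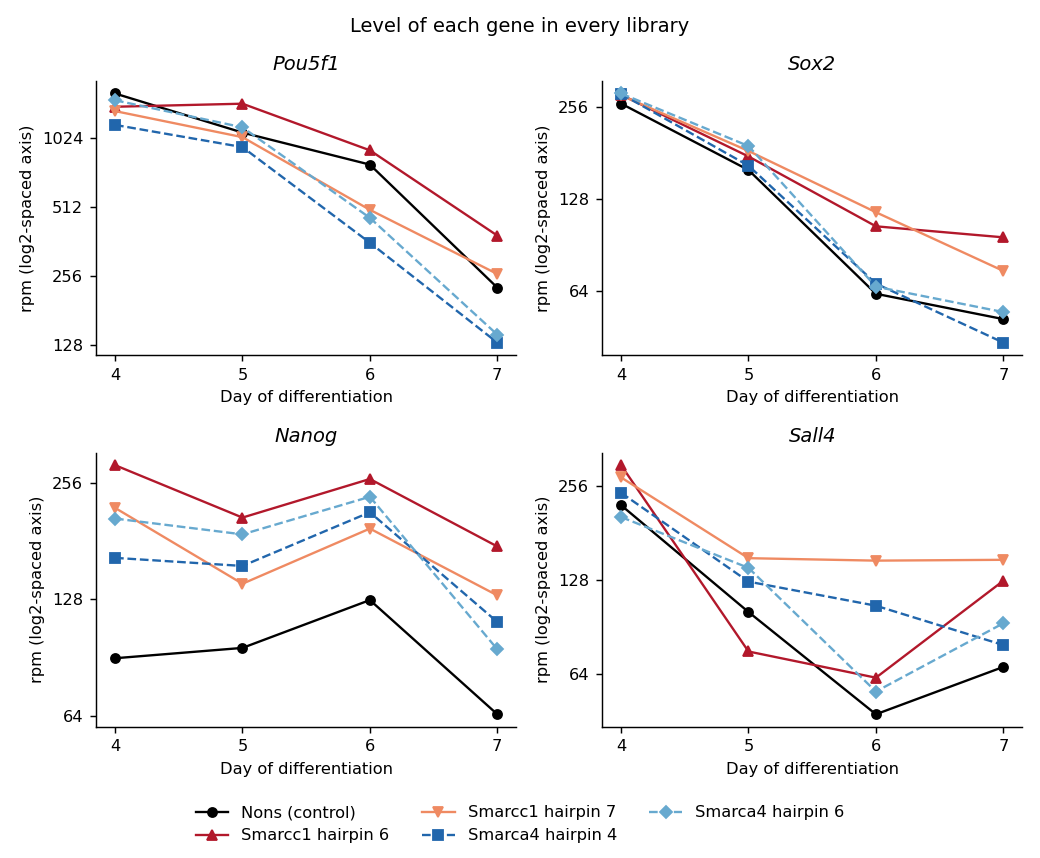
Level of each gene in rpm (log2-spaced axis) against the day of differentiation, with 1 point per library and 1 line per culture series. *Pou5f1* and *Sox2* fell from day 4 to day 7 in all 5 series, whereas the Nons line of *Nanog* lies below all 4 knockdown lines on every day.

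All 4 genes were lower on day 7 than on day 4 when the 3 groups were averaged, by limma with Benjamini-Hochberg adjustment over all tested genes. The background is broad, since 28.8% of the 13296 genes were called lower and 35.7% higher in that comparison. *Pou5f1* changed by -2.74 on the log2 scale (95% interval -3.16 to -2.32, adjusted *p* = 1e-07) and *Sox2* by -2.21 (-2.47 to -1.96, adjusted *p* = 1.04e-08). *Sall4* changed by -1.38 (-1.96 to -0.80, adjusted *p* = 0.000553) and *Nanog* by -0.68 (-1.04 to -0.32, adjusted *p* = 0.00286). On day 7 *Pou5f1* was left at 9.43% to 27.3% of the day 4 value of its own series, *Sox2* at 15.2% to 34.0%, *Sall4* at 30.3% to 54.4% and *Nanog* at 45.9% to 71.6%. The ranges of *Pou5f1* and *Sox2* lie wholly below that of *Nanog*. Centring each library on its median gene made these changes more negative by 0.18, to -0.86 for *Nanog* and -2.92 for *Pou5f1*.

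The fall was then taken day by day, and differences between the genes within a step were not tested. From day 4 to 5, a step in which 19.2% of all genes were called lower, *Sall4* fell (log2 change -1.10, adjusted *p* = 0.00676) and so did *Sox2* (-0.68, adjusted *p* = 0.000874), while the changes of *Pou5f1* (-0.36) and *Nanog* (-0.19) did not pass the threshold. From day 5 to 6, with 15.3% of genes called lower, *Sox2* (-1.16) and *Pou5f1* (-0.89) fell. In that step the estimate for *Nanog* was 0.40 (95% interval 0.04 to 0.76, adjusted *p* = 0.0809), and that for *Sall4* was -0.68 (adjusted *p* = 0.0705). From day 6 to 7, with 10.6% of genes called lower, *Pou5f1* (-1.48), *Nanog* (-0.90) and *Sox2* (-0.37) fell (limma adjusted *p* = 0.000389, 0.00296 and 0.0357). With the replicate block for the culture series the step from day 5 to 6 passed for *Nanog* (adjusted *p* = 0.0288) and for *Sall4* (0.0354). With quantile normalization that of *Nanog* also passed (0.04), as did the step of *Pou5f1* from day 4 to 5 (-0.80, adjusted *p* = 0.00153). *Sall4* had an estimate of 0.39 from day 6 to 7 (adjusted *p* = 0.272). The call of *Sall4* from day 4 to 5 was lost without Smarca4.4 (adjusted *p* = 0.0534), and that of *Nanog* from day 6 to 7 without Smarca4.6 (adjusted *p* = 0.0544). The call of *Sox2* from day 6 to 7 was lost without any one of the 4 hairpins (adjusted *p* 0.0582 to 0.145).

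*Pou5f1* (chr17:35506037-35510776, plus strand, mm10) encodes the POU-domain factor without which the pluripotent inner cell mass does not form. In Nons it measured 1607, 1084, 785 and 227 rpm on days 4, 5, 6 and 7. In Smarcc1.6 it measured 1406, 1450, 907 and 384 rpm, and in Smarcc1.7 it measured 1346, 1035, 498 and 261 rpm. These 8 libraries lay on both sides of same-day Nons, 4 above and 4 below. In Smarca4.4 it measured 1171, 936, 357 and 131 rpm, and in Smarca4.6 it measured 1501, 1143, 459 and 142 rpm. Here 7 of 8 libraries were below Nons, Smarca4.6 on day 5 being the exception, and both hairpins were lowest relative to Nons on days 6 and 7.

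Averaged over days, *Pou5f1* in *Smarcc1* knockdown did not differ from Nons past the threshold (log2 fold change 0.05, 95% interval -0.34 to 0.44, adjusted *p* = 0.899), with the 2 hairpins up to 0.87 apart on the same day. In *Smarca4* knockdown the estimate was -0.51 (95% interval -0.90 to -0.12), which had an unadjusted *p* of 0.014 and did not pass after adjustment (0.122). The difference between the knockdowns, which does not involve Nons, was 0.56 higher in *Smarcc1* knockdown (SE 0.146, adjusted *p* = 0.0513), just short of the threshold. That difference passed with quantile normalization (adjusted *p* = 0.0138) and without Smarcc1.7 (0.81, adjusted *p* = 0.0199). It was 0.31 without Smarcc1.6 (adjusted *p* = 0.278), and with the replicate block its adjusted *p* was 0.178.

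A noncoding entry, *Gm19553* (chr17:35509077-35510551, minus strand), lies inside the *Pou5f1* span on the other strand. It measured 22.1 to 245 rpm, between 15.1% and 17.1% of *Pou5f1* in every library. Whether counting used strand is not given in the sources used here, so reads of the 2 entries cannot be told apart.

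*Sox2* (chr3:34650005-34652461, plus strand) encodes the HMG-box partner of Oct4 and is also used by neural progenitors. In Nons it measured 264, 159, 62.5 and 51.6 rpm on days 4 to 7. It measured 282, 177, 104 and 95.8 rpm in Smarcc1.6 and 281, 184, 116 and 74.3 rpm in Smarcc1.7. All 8 *Smarcc1* knockdown libraries were above same-day Nons, as they were for 8.69% of tested genes. On days 4 and 5 they stood close to Nons, and on days 6 and 7 they were 0.53 to 0.89 above it on the log2 scale. It measured 284, 165, 67.5 and 43.2 rpm in Smarca4.4 and 284, 191, 65.9 and 54.4 rpm in Smarca4.6. The *Smarca4* knockdown libraries stayed within 83.7% to 120% of Nons.

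Over the 4 days *Sox2* was 1.36-fold higher in *Smarcc1* knockdown than in Nons (log2 fold change 0.45, 95% interval 0.21 to 0.69, limma adjusted *p* = 0.0188). This call is fragile: with a replicate block for the culture series the adjusted *p* was 0.118, and it was lost when any one of the 4 hairpins was left out (0.0554 to 0.0768). In *Smarca4* knockdown the log2 fold change was 0.07 (95% interval -0.17 to 0.30, adjusted *p* = 0.799). The difference between the knockdowns was 0.38 (SE 0.0893, adjusted *p* = 0.0305, higher in *Smarcc1* knockdown), and 2.55% of all genes were called in that direction. It was lost under the replicate block (adjusted *p* = 0.197) and without each of the hairpins in turn (0.116 to 0.222). Taken day by day, the *Sox2* estimates in *Smarcc1* knockdown were 0.09, 0.18, 0.81 and 0.71 above Nons on days 4 to 7. None passed after adjustment (limma adjusted *p* = 0.0724 on day 6 and 0.101 on day 7). The long noncoding gene *Sox2ot* spans *Sox2* on the same strand and measured 0.444% to 2.85% of the *Sox2* level. The 4 neural progenitor markers that passed the filter on low values (*Sox1*, *Pax6*, *Nes* and *Olig2*) summed to 34.3 to 128 rpm in Nons, 34.7 to 122 in *Smarcc1* knockdown and 38.6 to 155 in *Smarca4* knockdown. Of these 4 genes *Sox1* was called higher in both knockdowns (log2 fold change 2.40 and 2.33), as 3.30% of all tested genes were. *Olig2* (0.62 and 0.49), *Pax6* (0.26 and 0.30) and *Nes* (-0.45 and -0.39) were not called in either knockdown. *Neurog2*, which did not pass that filter, had no reads in 4 libraries. The part of these cells in the *Sox2* level was not tested.

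*Nanog* (chr6:122707489-122714633, plus strand) encodes the homeodomain factor and was above Nons in both knockdowns throughout. In Nons it measured 90.1, 95.8, 127 and 64.5 rpm on days 4 to 7. It measured 285, 208, 262 and 175 rpm in Smarcc1.6 and 221, 140, 195 and 131 rpm in Smarcc1.7. It measured 164, 156, 215 and 112 rpm in Smarca4.4 and 207, 188, 236 and 95.0 rpm in Smarca4.6. All 16 knockdown libraries were above Nons of their day, at 146.5% to 316% of it, whereas 3.91% of tested genes had all 16 above and 9.85% had all 8 *Smarca4* libraries above. On each day the mean of the 2 hairpins differed from Nons by more than the hairpins differed from each other, in both knockdowns. In all 5 series day 6 was the highest of days 5 to 7.

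**Figure D2:**
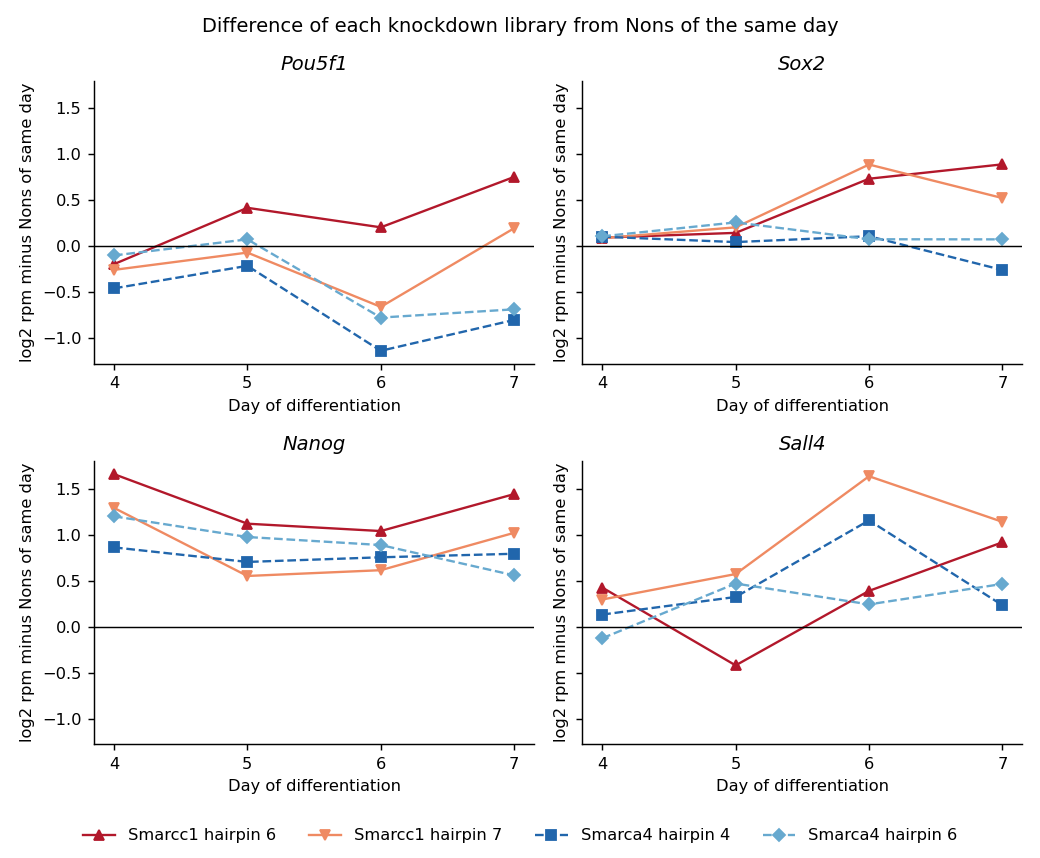
Difference in log2 rpm between each knockdown library and Nons of the same day (vertical axis) against the day of differentiation, with 1 line per hairpin and the level of Nons at 0. All 16 points of *Nanog* lie above 0, the *Smarcc1* points of *Sox2* move away from 0 on days 6 and 7, and the *Smarca4* points of *Pou5f1* lie below 0 except on day 5 for hairpin 6.

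*Nanog* was 2.13-fold higher in *Smarcc1* knockdown than in Nons over the 4 days (log2 fold change 1.09, 95% interval 0.76 to 1.42, limma adjusted *p* = 0.000591). It was 1.79-fold higher in *Smarca4* knockdown (log2 fold change 0.84, 95% interval 0.51 to 1.17, adjusted *p* = 0.00554). Both contrasts share the Nons libraries, and 3.30% of tested genes were called higher in both. The difference between the knockdowns was 0.25 (95% interval -0.02 to 0.52, adjusted *p* = 0.354). With the replicate block the adjusted *p* was 0.00352 for *Smarcc1* knockdown and 0.0274 for *Smarca4* knockdown. Without Smarca4.4 or Smarca4.6 the *Smarca4* estimate was 0.91 or 0.78, and its adjusted *p* of 0.0602 or 0.109 no longer passed. Taken day by day, the *Smarcc1* estimates were 1.48, 0.84, 0.83 and 1.23. That of day 7 passed (limma adjusted *p* = 0.0383), on a day when 3.70% of genes were called higher. The larger estimate of day 4 had the lower unadjusted *p* (limma, 0.000341 against 0.00145 on day 7) but did not pass (adjusted *p* = 0.237). Each adjustment runs over all genes of a day, so the call does not make day 7 the day of the largest difference. The call on day 7 alone was lost with limma-voom (adjusted *p* = 0.205), after centring (0.124), with the higher filter (0.0689), and without either *Smarca4* hairpin or Smarcc1.6 (0.13 to 0.161). The *Smarca4* estimates were 1.03, 0.84, 0.82 and 0.68, none of which passed after adjustment on a single day.

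The seed of the Nons guide has a match in the 3′ UTR of *Nanog* itself, in the middle of the 23 bases shown here for that reason (chr6:122714521-122714527, GRCm38, plus strand), with the match in capitals.
*Nanog* with Nons seed match: gtcccccaAGAGTAActgctatg
Such 7-base matches are common: 1054 of 11418 tested genes with an annotated 3′ UTR (9.23%) held one for this seed. The median log2 fold change of those 1054 genes was 0.07 in *Smarcc1* knockdown, against 0.06 for all 11418, and 0.04 in *Smarca4* knockdown, against 0.06. Of them 76 were called higher and 36 lower in *Smarcc1* knockdown, and 32 and 30 in *Smarca4* knockdown. Over all tested genes the shares called higher and lower were 7.54% and 3.08% in *Smarcc1* knockdown, and 4.75% and 1.96% in *Smarca4* knockdown. The part of this match in the *Nanog* difference was not tested. The Smarca4.4 seed has a match in the 3′ UTR of *Sall4* and the Smarca4.6 seed has a match in that of *Sox2*, while the *Smarcc1* guides have none in the 4 genes.

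Germ cells also express *Nanog*, *Pou5f1* and *Sall4*. The 6 germ cell markers looked at summed to 428 rpm in Nons on day 4, against 687 to 770 rpm in *Smarcc1* knockdown and 652 to 678 rpm in *Smarca4* knockdown. On day 5 they summed to 143 rpm in Nons and to 140 to 229 rpm and 155 to 168 rpm in the knockdowns. On days 6 and 7 all knockdown sums were again above Nons, with 109 rpm in Nons and 178 to 187 and 191 to 204 rpm in the knockdowns on day 7. Of the 5 that could be tested, *Tfap2c* (log2 fold change 0.91), *Dazl* (0.91) and *Ddx4* (0.42) were called higher in *Smarcc1* knockdown. In *Smarca4* knockdown *Tfap2c* (0.84) and *Ddx4* (0.69) were. Over all tested genes 7.54% and 4.75% were called higher in these knockdowns. *Dazl* reached 616 rpm, the highest level of any of the 6, and changed by -3.67 on the log2 scale from day 4 to day 7. *Tfap2c* is also 1 of the trophoblast markers. Not called were *Prdm1* (0.26 and 0.77) and *Dnd1* (-0.11 and -0.01) in either knockdown, and *Dazl* in *Smarca4* knockdown (0.45). *Nanos3*, a defining marker, did not exceed 2.22 rpm, and none of the 6 was without reads in any library. The part of such cells in the *Nanog* level was not tested.

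*Sall4* (chr2:168748332-168767943, minus strand) varied most between hairpins. In Nons it measured 222, 101, 47.5 and 67.4 rpm on days 4 to 7. It measured 299, 75.5, 62.3 and 127 rpm in Smarcc1.6 and 273, 150, 148 and 149 rpm in Smarcc1.7. The 2 *Smarcc1* hairpins were up to 1.25 apart on the log2 scale on the same day, the widest same-day gap among the 4 genes. It measured 244, 126, 106 and 79.2 rpm in Smarca4.4 and 204, 140, 56.2 and 93.0 rpm in Smarca4.6. In each knockdown 7 of 8 libraries were above Nons.

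The estimate for *Sall4* was 0.62 in *Smarcc1* knockdown (95% interval 0.09 to 1.15, unadjusted *p* = 0.0259, limma adjusted *p* = 0.149) and 0.36 in *Smarca4* knockdown (95% interval -0.17 to 0.89, adjusted *p* = 0.467). Neither passed the threshold. Without Smarcc1.6 the first estimate was 0.91 and passed (adjusted *p* = 0.0255), and without Smarcc1.7 it was 0.33 (adjusted *p* = 0.466). The difference between the knockdowns was 0.26 (adjusted *p* = 0.618). Primitive endoderm, which also uses *Sall4*, was represented by 9 markers that summed to 7.46 to 43.0 rpm in Nons, 10.2 to 45.6 rpm in *Smarcc1* knockdown and 5.38 to 36.2 rpm in *Smarca4* knockdown. Of the 4 that could be tested, *Cubn* (log2 fold change 1.17, limma adjusted *p* = 0.0125) and *Gata4* (1.14, adjusted *p* = 0.00652) were called higher in *Smarcc1* knockdown, and *Gata4* (0.89, adjusted *p* = 0.0383) in *Smarca4* knockdown. *Amn* (0.45 and -0.18) and *Dab2* (-0.25 and -0.54) were not called. Over all tested genes 7.54% were called higher in *Smarcc1* knockdown and 4.75% in *Smarca4* knockdown. *Cubn* and *Gata4* were low, with geometric means of 2.4 and 1.5 rpm over the libraries, whereas *Dab2* reached 36.1 rpm. *Gata6* had no reads in 2 libraries, *Sox17* in 1 and *Foxa2* in 5, and the part of such cells in the *Sall4* level was not tested.

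Of the 4 genes, *Nanog* and *Sox2* were called higher in *Smarcc1* knockdown, where 7.54% of all tested genes were, and *Nanog* was called higher in *Smarca4* knockdown, where 4.75% were. None of the 4 was called lower, as 3.08% and 1.96% of genes were.

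The pace of the fall from day 4 to day 7 was compared between groups. Within Nons this sets 1 library against 1, with no replicate of its own, and the spread in the test is that between the hairpin pairs of the knockdowns. On that basis *Pou5f1*, *Sox2* and *Sall4* were lower in Nons on day 7 past the threshold (as 14.3% of genes were), and *Nanog* had a log2 change of -0.48 (95% interval -1.24 to 0.28). Within *Smarcc1* knockdown (18.4% of genes called lower) and within *Smarca4* knockdown (21.1%) all 4 genes were called lower. Tested directly, no difference between the change in knockdown and that in Nons passed the threshold after adjustment for any of the 4 genes. Calls of this kind were rare, at 0.459% of genes for *Smarcc1*, 0.0827% for *Smarca4* and 0.00752% for the difference between the knockdowns. The largest estimates were between the knockdowns, where *Pou5f1* changed by -2.12 in *Smarcc1* knockdown and by -3.28 in *Smarca4* knockdown, a difference of 1.17 (95% interval 0.27 to 2.06, unadjusted *p* = 0.0148, limma adjusted *p* = 0.687). *Sox2* changed by -1.74 and -2.55, a difference of 0.81 (95% interval 0.27 to 1.36, unadjusted *p* = 0.00686, adjusted *p* = 0.564).

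Levels were set side by side per kilobase of exon, using the union of the annotated exons. *Pou5f1* had the highest median level on every day, from 625 rpm per kb on day 4 to 101 on day 7, and *Sall4* had the lowest, from 44.0 to 16.8. *Sox2* and *Nanog* changed places. On day 4 *Sox2* measured 128 to 138 rpm per kb and *Nanog* 40.2 to 127, without overlap. On day 5 the ranges were 77.5 to 92.9 and 42.7 to 92.9. On day 6 *Sox2* measured 30.4 to 56.3 and *Nanog* 56.8 to 117, again without overlap but in the opposite order. On day 7 the 2 genes overlapped, with *Sox2* reaching 46.6 and *Nanog* starting at 28.8. The ranges of *Pou5f1* and *Nanog* over all libraries also overlapped on day 7, when *Pou5f1* measured 58.1 to 171. Within each library of that day *Pou5f1* was still above *Nanog*, the closest being Smarca4.4 (58.1 against 49.9).

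Ratios of 2 members within a library do not depend on its total. For each of the 6 pairs and both knockdowns, the hairpins were compared with Nons by an exact permutation test, two-sided, in which the control label was moved among the 3 same-day libraries in all 81 possible ways, with a smallest possible *p* of 0.012. This test treats the days of 1 culture series as independent. When the control label was moved among whole series there were 3 arrangements, with a smallest possible *p* of 0.333, so no ratio could pass, and the *p*-values below hold only if days are exchangeable. The ratio of *Pou5f1* to *Nanog* was below Nons in all 16 knockdown libraries. In Nons its log2 value was 4.16, 3.50, 2.62 and 1.82 on days 4 to 7. It was 2.31, 2.80, 1.79 and 1.13 in Smarcc1.6 and 2.84, 2.58, 0.73 and 0.23 in Smarca4.4. The mean difference from Nons was -1.04 in *Smarcc1* knockdown and -1.35 in *Smarca4* knockdown (exact *p* = 0.012 each, 0.037 after Benjamini-Hochberg adjustment over the 12 tests). The pooled SD between hairpins was 0.197 and 0.148.

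**Figure D3:**
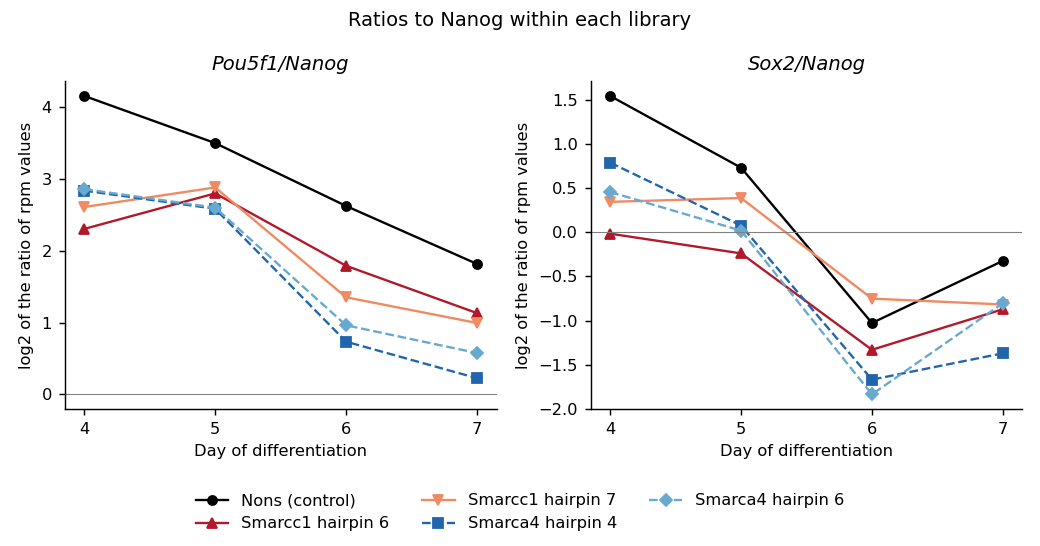
Log2 of the ratio of *Pou5f1* to *Nanog* (left) and of *Sox2* to *Nanog* (right) in rpm within each library, against the day of differentiation, with 1 line per culture series. The Nons line lies above all 4 knockdown lines on every day for *Pou5f1* to *Nanog*, and above them except for Smarcc1.7 on day 6 for *Sox2* to *Nanog*.

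The ratio of *Sox2* to *Nanog* differed from Nons by -0.64 on the log2 scale in *Smarcc1* knockdown (lower in 7 of 8 libraries) and by -0.78 in *Smarca4* knockdown (8 of 8), with exact *p* of 0.0247 and 0.012 and adjusted *p* of 0.0494 and 0.037. The ratio of *Pou5f1* to *Sox2* was lower in all 8 *Smarca4* libraries (mean difference -0.58, exact *p* = 0.012, adjusted 0.037), and differed by -0.40 in *Smarcc1* knockdown (exact *p* = 0.136), where the hairpins had an SD of 0.415 and the difference was -0.62 without Smarcc1.6 and -0.17 without Smarcc1.7. The ratio of *Pou5f1* to *Sall4* differed by -0.87 in *Smarca4* knockdown (exact *p* = 0.0247, adjusted 0.0494), and was lower in 7 of 8 libraries. The remaining 5 tests, all on ratios with *Sall4*, did not pass (exact *p* 0.0864 to 0.531). Tests of both knockdowns share the Nons libraries. The difference in a log2 ratio is by construction the estimate of the first gene minus that of the second, in the same libraries. These tests are therefore not separate from the limma contrasts above, and the ratios to *Nanog* carry its higher level in both knockdowns.

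Over the 20 libraries the log2 values of *Pou5f1* and *Sox2* had a Pearson correlation of 0.894, those of *Sox2* and *Sall4* of 0.778, and those of *Nanog* and each other member of 0.223 to 0.420. The libraries share days and series, so these are descriptions. Among 9307 genes with a mean of at least 10 rpm, the 5 most like *Pou5f1* were *Gm19553* (0.999), *4930566F21Rik* (0.982), *Usf1* (0.979), *4930548H24Rik* (0.978) and *Hspbap1* (0.973). The 5 most like *Sox2* were *Lrrc2* (0.981), the entry listed as Sep-01 (0.981), the DNA methyltransferase gene *Dnmt3a* (0.979), *Cyp2b23* (0.978) and *Tex9* (0.977). *Sall4* was most like *Gpatch1* (0.983), *Qrich1* (0.976), *Sp2* (0.974), *Clstn3* (0.974) and *Naa40* (0.972). *Nanog* had looser neighbours: *Fbxo15* (0.842), *Gcat* (0.773), *Srfbp1* (0.770), *Hecw2* (0.766) and *Cenpv* (0.755). *Fbxo15*, an F-box gene often used as a stem cell reporter, was called higher in both knockdowns as *Nanog* was (log2 fold change 1.24 and 1.04), and so was *Hecw2* (0.99 and 0.60). Over all tested genes 3.30% were called higher in both. *Gcat*, *Srfbp1* and *Cenpv* were called in neither knockdown. The neighbours were picked over Nons and knockdown libraries together, so a call shared with *Nanog* is partly built into the choice.

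The surroundings of the 4 genes in the network were described with fixed lists, by counts beside those over all tested genes. Over all tested genes, 7.54% were called higher and 3.08% lower in *Smarcc1* knockdown, 4.75% and 1.96% in *Smarca4* knockdown, and 35.7% and 28.8% on day 7 against day 4. Of 11 tested genes of the naive network, which mESCs use in 2i, 8 were called higher in *Smarcc1* knockdown (background 7.54%) and none lower, with a median log2 fold change of 1.51 against 0.06 over all genes, and 6 were called higher in *Smarca4* knockdown (background 4.75%) with a median of 0.82. The 5 with the highest fold change in *Smarcc1* knockdown were the nuclear receptor gene *Nr5a2* (2.37), *Klf2* (2.12), *Esrrb* (1.84), *Klf4* (1.81) and *Tcl1* (1.79). In *Smarca4* knockdown they were *Klf2* (1.65), *Esrrb* (1.24), *Dppa3* (1.13), *Tcl1* (1.04) and *Nr5a2* (0.95). Of these, *Nr5a2*, *Klf4* and *Tcl1* were low, with geometric means of 4.19, 4.79 and 3.07 rpm over the libraries. Called in neither knockdown were *Klf5* (-0.50 in *Smarcc1* and -0.43 in *Smarca4* knockdown), *Nr0b1* (0.32 and -0.57) and *Tfcp2l1* (0.58 and 0.56). Between the knockdowns, 5 of the 11 were called higher in *Smarcc1* knockdown, as 2.55% of all genes were, and none lower. On day 7 against day 4, 7 of the 11 fell (background 28.8%), the most *Nr0b1* (-6.85), *Esrrb* (-3.54), *Nr5a2* (-3.43) and *Tcl1* (-2.85), and 1 (*Dppa3*, 1.54) rose. *Prdm14* was too low to be tested.

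Of 23 other genes of the shared pluripotency network, 8 were called higher in *Smarcc1* knockdown (background 7.54%) and 4 in *Smarca4* knockdown (4.75%), and none lower (3.08% and 1.96%). They were led by *Spp1* (1.76), *Fbxo15* (1.24), the Nodal antagonist gene *Lefty2* (1.04), *Dppa2* (0.99) and *Dppa4* (0.80) in *Smarcc1* knockdown, and by *Fbxo15* (1.04), *Dppa2* (0.98), *Mybl2* (0.62) and *Dppa4* (0.62) in *Smarca4* knockdown. From day 4 to day 7, 20 of the 23 fell (background 28.8%) and 1 (*Lefty1*, 1.35) rose (35.7%), the largest changes being those of *Foxd3* (-5.24), *L1td1* (-3.25), *Fgf4* (-3.14) and *Dppa2* (-2.98). The medians were 0.53 in *Smarcc1* knockdown, 0.27 in *Smarca4* knockdown and -1.69 over time.

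Formative and primed genes, which rise as cells leave the naive state, did not move in 1 direction. Of 12 tested, 2 were called higher in *Smarcc1* knockdown, the de novo methyltransferase gene *Dnmt3a* (0.81) and *Nodal* (0.56), and 2 lower, *Fgf5* (-1.31) and *Otx2* (-0.45), against 7.54% and 3.08% of all genes. In *Smarca4* knockdown *Fgf5* (-1.10) and *Otx2* (-0.60) were called lower (background 1.96%) and none higher (4.75%). From day 4 to day 7, 7 fell (background 28.8%) and 1 rose (*Sox11*, 0.66; background 35.7%), led by *Lef1* (-4.56), *Dnmt3a* (-3.05), *Dnmt3b* (-2.41) and *Tcf15* (-2.21).

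**Figure D4:**
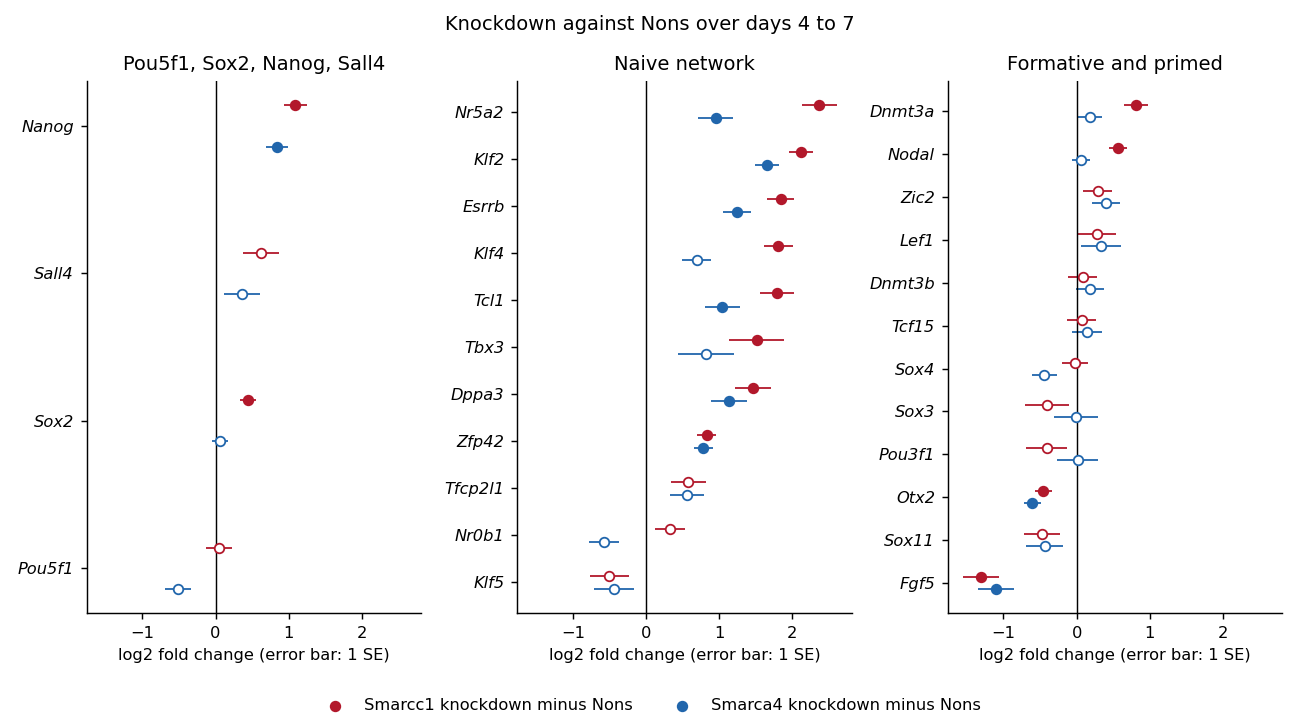
Log2 fold change over days 4 to 7 against Nons (horizontal axis, bars 1 SE) in *Smarcc1* knockdown (red) and *Smarca4* knockdown (blue), for the 4 core genes, the naive network and formative and primed genes. Filled points passed an adjusted *p* of 0.05 by limma and open points did not, and all filled points of the naive network lie above 0 while *Fgf5* and *Otx2* lie below it in both knockdowns.

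Among paralogs of the 4 families, 10 of 12 were tested. *Sox1* (2.40), *Sall3* (1.20) and *Sox15* (1.11) were called higher in *Smarcc1* knockdown, *Sox1* (2.33) and *Sox15* (1.41) in *Smarca4* knockdown, and none lower, against 7.54% and 4.75% of all genes called higher. From day 4 to day 7, 5 fell (background 28.8%) and none rose (35.7%), led by *Pou2f3* (-3.96), *Sall3* (-2.66), *Sall1* (-2.10) and *Pou2f1* (-1.17). Of 17 genes for protein partners of the 4 factors, subunits of NuRD, BAF and others, none was called in either knockdown, where 7.54% and 4.75% of all genes were called higher and 3.08% and 1.96% lower, so that few calls among 17 genes would match the background. Over time 4 rose and 9 fell (background 35.7% and 28.8%), the largest changes being those of *Mta1* (1.48), *Smad1* (1.20), *Smarcd1* (-1.19) and *Arid1a* (-1.13).

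Promoters of the members were searched for the sites of Oct4 and Sox2, in RefSeq windows (GRCm38.p6) from 250 bases before to 50 after a start site, on both strands. Windows were matched for *Pou5f1*, *Sox2* and *Nanog*. The SOX site CATTGT was found in 12.6% of 32851 windows and the POU site ATGCAAA in 4.63%. CATTGT followed after 1 base by ATGCAAA, the arrangement bound by the Sox2 and Oct4 pair, was found in 2 windows, both of *Nanog* and overlapping each other. The stretch of the *Nanog* promoter with this composite, 105 to 32 bases before the first start site (chr6:122707384-122707457, plus strand), is shown with both sites in capitals and reads them on the minus strand. That of *Sox2*, 129 to 63 bases before its start (chr3:34649866-34649932, plus strand), is shown with its single POU site in capitals.
*Nanog* promoter: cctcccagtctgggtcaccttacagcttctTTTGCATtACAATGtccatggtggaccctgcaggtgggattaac
*Sox2* promoter: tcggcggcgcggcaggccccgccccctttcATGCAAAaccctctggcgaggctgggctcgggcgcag
A window of *Pou5f1* (chr17:35508557-35508856) holds a SOX site and no POU site. It lies inside the span of the gene given above and not at the start of that span. The other window matched for *Pou5f1* holds neither site.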

How the data were processed

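RNA of male mESCs was sequenced as single-end reads of 75 bp. Trimming with trim_galore and alignment to mm10 with tophat or hisat2 were done by the authors, who quantified genes with SeqMonk and deposited them as log2 rpm. The annotation release and the use of strand are not given in the sources used here. The lowest value of each library equals 0.9 of a read, from which whole reads were recovered for 100% of the values under 1000 reads (within 0.02). Groups follow the sample titles, although a genotype label gives Smarcc for the libraries titled Smarca4.

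The linear model was fitted in limma (3.58.1, with trended eBayes, under R 4.3.3) to the 13296 genes whose log2 values averaged 0 or more, with a mean for each group and day and Benjamini-Hochberg adjustment across all of them, at a threshold of 0.05. Same-day hairpin pairs supplied its 8 residual degrees of freedom. Ratios were tested in Python 3 by exact permutation within days. The alternatives were other filters, 1 added to rpm, centring, quantile normalization, limma-voom on recovered reads, a model of group plus day, a replicate block and leaving out hairpins or the smallest library. Named are the 4 genes, the 2 targets, the 5 genes most correlated with each, and per list the 4 largest changes over time and up to 5 called in each knockdown. The members and lists were chosen with earlier results of these data known. The contrasts on single days, the permutation of whole series and the day 4 to day 7 change between the knockdowns were added after seeing the data. The limma fit of the knockdown contrasts averaged over days was tested on simulated data, drawn without correlation within a culture series. The test of ratios and the alternatives were not tested in that way. One listed marker gene is not reported here.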

Additional observations from a re-analysis of the deposited data

Results flagged for a closer look

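*Sox2* was flagged because its response differed between the 2 knockdowns. Averaged over days 4 to 7 it was 0.38 higher on the log2 scale in *Smarcc1* knockdown than in *Smarca4* knockdown (SE 0.0893, limma adjusted *p* = 0.0305), with both *Smarcc1* hairpins above both *Smarca4* hairpins on days 6 and 7. The call was lost with limma-voom, with group plus day, with no filter, with the replicate block and without each hairpin.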

How the results depend on the processing

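Of the results on the 4 genes, the calls of *Nanog* in *Smarcc1* knockdown and of all 4 genes on day 7 against day 4 held under every alternative run.

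The hairpin numbers name hairpins and pair no cultures, so the replicate block was the culture series (all days of 1 hairpin, or all Nons libraries, with an estimated correlation of 0.217). Across genes, the difference between 2 hairpins on 1 day and that on another had correlations of -0.206 to 0.823. Under the block, *Sox2* lost its call in *Smarcc1* knockdown (0.45, adjusted *p* = 0.118) and between the knockdowns (0.38, adjusted *p* = 0.197), and no other call on the 4 genes changed in those comparisons or over time from day 4 to 7. The numbers of genes called fell from 1412 to 605 (*Smarcc1*), from 892 to 258 (*Smarca4*) and from 544 to 105 (between the knockdowns).

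*Sox2* in *Smarcc1* knockdown also lost its call after centring (0.39, adjusted *p* = 0.0543) and with limma-voom (0.33, adjusted *p* = 0.111). Between the knockdowns *Sox2* lost its call with limma-voom (0.33, adjusted *p* = 0.0758), with group plus day (0.38, adjusted *p* = 0.0675) and with no filter (0.38, adjusted *p* = 0.0518). *Pou5f1* gained one there with quantile normalization (0.57). Leaving out each hairpin gave ranges of 0.43 to 0.47 (*Sox2*, *Smarcc1*), 0.32 to 0.45 (*Sox2*, between knockdowns), 0.78 to 0.91 (*Nanog*, *Smarca4*, lost both times), 0.33 to 0.91 (*Sall4*, *Smarcc1*) and 0.31 to 0.81 (*Pou5f1*, between knockdowns). Estimates near 0 that changed sign without a call were *Pou5f1* in *Smarcc1* knockdown (-0.0066 centred, -0.071 with limma-voom, -0.20 to 0.30 without a hairpin), *Sox2* in *Smarca4* knockdown (-0.0083 centred, -0.0022 with limma-voom), *Sox2* in *Smarcc1* knockdown on day 4 (-0.0036 with quantile normalization) and *Sall4* between the knockdowns (-0.034 to 0.55 without a hairpin). The day 4 to day 7 change of *Nanog* between the knockdowns turned to -0.049 with limma-voom and ranged from -0.17 to 0.40 without a hairpin. With whole culture series moved as the replicate block, a choice made after seeing the data, none of the 6 called ratios could pass, since 3 arrangements allow no *p* under 0.333 (differences of -1.04 and -1.35 for *Pou5f1* to *Nanog*, -0.64 and -0.78 for *Sox2* to *Nanog*, -0.58 for *Pou5f1* to *Sox2* and -0.87 for *Pou5f1* to *Sall4*, unchanged by construction). Without a hairpin, the ratio of *Pou5f1* to *Sall4* in *Smarcc1* knockdown ranged from -1.11 to -0.03 and that of *Pou5f1* to *Sox2* from -0.62 to -0.17. The ratio of *Sox2* to *Sall4* in *Smarcc1* knockdown ranged from -0.48 to 0.14 and that of *Nanog* to *Sall4* from -0.041 to 0.99, and *Smarca4* itself in *Smarcc1* knockdown from -0.034 to 0.57.

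Genes with a mean of at least 10 rpm gave 579, 324 and 241 calls for *Smarcc1*, *Smarca4* and the difference between them, since fewer genes were tested. Leaving out a hairpin gave 843 to 1288, 277 to 656 and 49 to 263 calls. Without the smallest library the difference between the knockdowns had 1067 calls. Apart from the filter, the cause of these changes was not tested.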

Other observations

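Of the marker lists not set beside a gene above, trophoblast markers summed to 17.9 to 187 rpm in Nons, 27.5 to 116 rpm in *Smarcc1* knockdown and 25.4 to 184 rpm in *Smarca4* knockdown. The keratin gene *Krt7* led them, with a change of 6.06 on the log2 scale from day 4 to day 7. *Tfap2c* was called higher in both knockdowns. *Hand1* was called higher in *Smarca4* knockdown (log2 fold change 1.35, limma adjusted *p* = 0.0215), and not in *Smarcc1* knockdown (1.02, adjusted *p* = 0.0581). *Krt7* was called lower in *Smarcc1* knockdown (log2 fold change -1.02) and not called in *Smarca4* knockdown (-0.29). *Gata3* (-0.01 and 0.52) was called in neither knockdown, and *Elf5* had no reads in 6 libraries. Over all tested genes 7.54% were called higher and 3.08% lower in *Smarcc1* knockdown. The shares in *Smarca4* knockdown were 4.75% and 1.96%. Fibroblast markers reached 53.3 rpm in Nons, 122 rpm in *Smarcc1* knockdown and 45.2 rpm in *Smarca4* knockdown, all on day 7, through the collagen genes *Col1a1* and *Col1a2*. In *Smarcc1* knockdown *Col1a1* was called higher (log2 fold change 1.32), *Twist1* of the same list was called lower (-0.67, limma adjusted *p* = 0.0433), and *Col1a2* was not called (1.02, adjusted *p* = 0.0887). *Thy1* was not called in *Smarcc1* knockdown (-0.11). In *Smarca4* knockdown *Col1a1* (0.77), *Col1a2* (-0.83), *Thy1* (-0.49) and *Twist1* (-0.16) were not called. *Col3a1*, another collagen gene, had no reads in 7 libraries. Primitive streak and mesoderm markers stayed at 3.83 to 16.1 rpm in sum, most of it *Eomes*, and *Mesp1* had no reads in 10 libraries.

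*4930548H24Rik* and *4930566F21Rik*, both among the 5 entries most like *Pou5f1*, overlap each other on opposite strands of chromosome 5 (31485859 to 31488476 and 31486629 to 31495179). They fell by 3.63 and 3.52 on the log2 scale from day 4 to day 7, against a change of -2.74 for *Pou5f1*.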
